A study of Mus musculus with 12 samples.

Results

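The genes described here encode the machinery that removes introns from pre-mRNA. They were chosen by symbol, as the genes named Snrp with a letter suffix, Sf3a or Sf3b with a number, Srsf with a number, Prpf with a number, and Lsm with a number, leaving out Snrpn. By this rule 55 of the 12845 genes in the tables were members: 11 Snrp, 9 Sf3, 11 Srsf, 13 Prpf and 11 Lsm genes. The 12 libraries came from mouse embryonic gonads at E13.5, with 3 each for male primordial germ cells (PGCs, the precursors of sperm and eggs), female PGCs, and the soma of each sex. All 4 groups were of the strain Oct4GFPxICR, from females mated to males with Oct4GFP, a green fluorescent reporter that is active in germ cells, and carried no other stated treatment. PGCs were the Oct4GFP-positive cells from a flow sorter and soma was everything that was Oct4GFP-negative, so the soma is a mixture of gonadal cell types. ERCC control RNA was spiked in by the number of cells, and the authors deposited each gene's level on 2 log2 scales, one relative to read depth and one relative to cell number. The series asks about hypertranscription, a rise in the RNA output of the whole cell.

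Introns are removed by the spliceosome, which is built anew on each intron from small nuclear ribonucleoproteins (snRNPs). The Snrp genes encode the Sm proteins that form a ring around the U1, U2, U4 and U5 small nuclear RNAs, and a few proteins particular to U1 or U2. Sf3a and Sf3b subunits hold the U2 snRNP on the branch point, Lsm proteins form the ring on U6, and many Prpf proteins assemble or activate the U4/U6.U5 tri-snRNP. Srsf genes encode SR proteins, which bind exons and steer splice site choice, and several of them limit their own messenger RNA through exons that trigger its decay.

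The libraries held 6454322 to 24791414 reads, and the lowest level of any member in a library was 58 reads, so no member was near the limit of detection. Levels are given as CPM, a gene's reads scaled to a fixed library total. In the sorted populations 8 of 8 germ cell markers, among them Pou5f1 and Ddx4, were higher in PGCs, with a summed level of 3482 to 4981 CPM in PGCs and 75 to 234 CPM in soma. All 8 gonadal soma markers were lower in PGCs (5.93 to 44.9 CPM in PGCs and 1261 to 3007 CPM in soma). RNA of blood cells was present in soma, where 6 measured erythroid genes summed to 3383 to 8578 CPM in male soma and 17586 to 29541 CPM in female soma, against 2.91 to 9.94 CPM in PGCs. The part of these other cells in the differences between PGCs and soma was not tested. The labels do not say whether replicates came from separate litters or animals, so the p-values measure the spread between these libraries. In bulk RNA, fewer cells of a type and less RNA per cell cannot be told apart.

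As a share of reads, most splicing genes were higher in PGCs than in soma. Averaged over both sexes, 45 of 55 members were higher and 6 were lower by limma at an adjusted p under 0.05, where 41.4% of all genes tested were higher and 45.3% lower. The median member was higher by 0.46 on the log2 scale of the read depth table, while the median of all genes was -0.04. The summed level of the 55 genes was 12152 ± 415 CPM in PGCs and 7939 ± 70.3 in soma for males, and 10273 ± 123 in PGCs and 8149.6 ± 78.4 in soma for females (SD, n = 3 each). PGC libraries of each sex did not overlap with the soma libraries of that sex in this sum, and its ratio of PGCs to soma was 1.53 in males and 1.26 in females. For PGCs against soma, the log2 differences of the read depth table were compressed relative to reads. Over the 55 members they rose by 0.774 for each log2 unit of CPM, and over all genes by 0.706. Apart from this compression, small differences could have opposite signs in CPM and on the read depth scale. Sf3b3 had 1.03 times the CPM in female as in male PGCs and a negative log2 difference. A separate fit of the whole reads with voom, which scaled the libraries in its own way, also gave a negative value (-0.12).

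**Figure D1:**
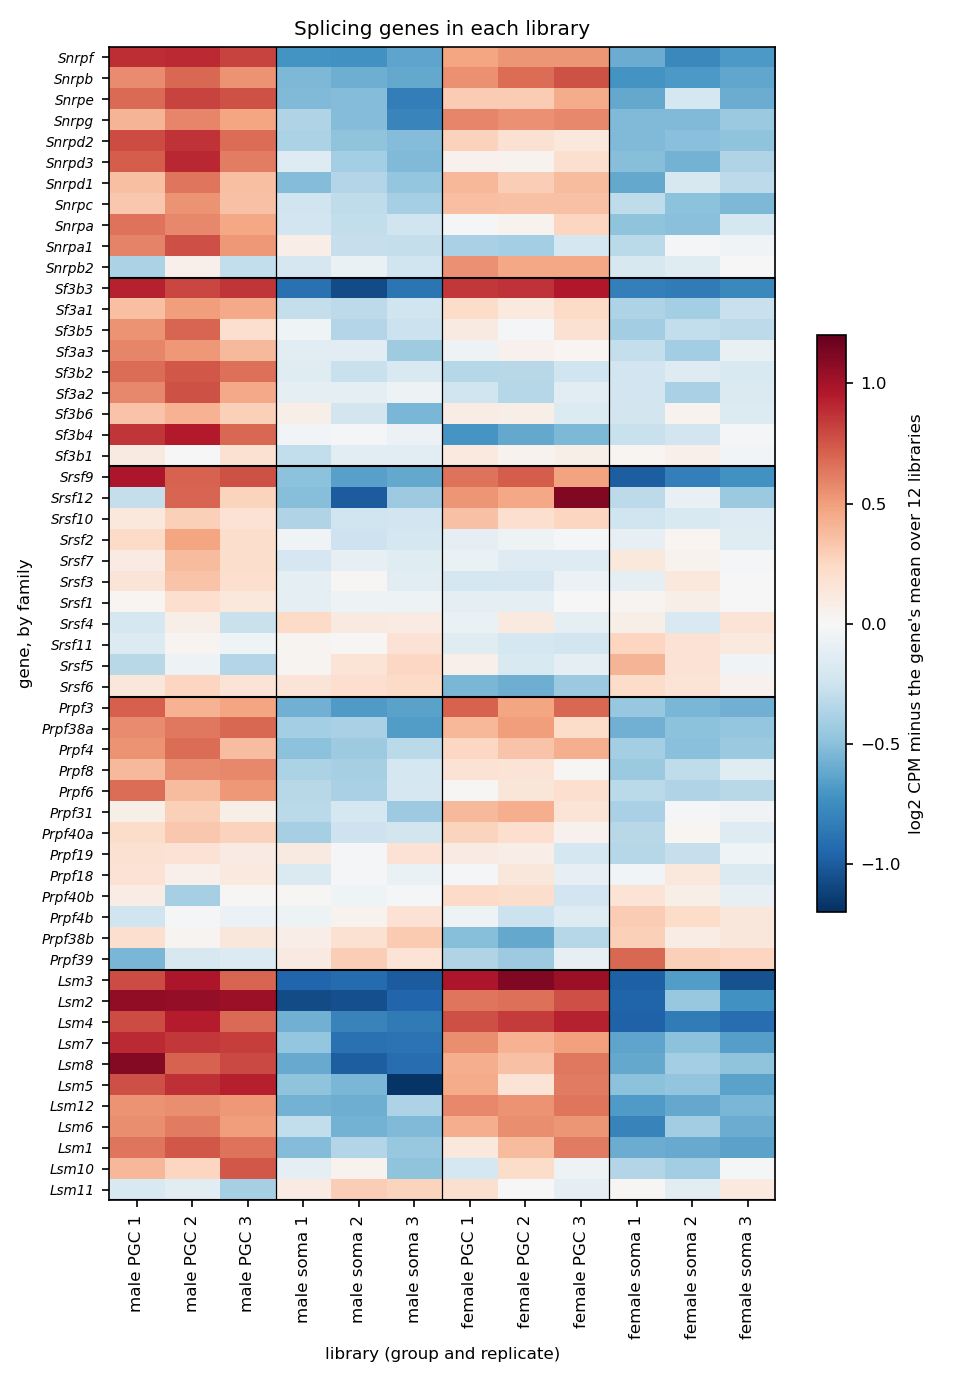
Level of each splicing gene (rows, by family) in each of the 12 libraries (columns), as log2 CPM minus the gene's mean over the libraries. Most rows are red in the 6 PGC libraries and blue in the 6 soma libraries, Sf3b3 and Lsm3 with the strongest contrast, and rows such as Snrpa1, Sf3b2 and Sf3b4 are red chiefly in male PGCs.

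Promoters are shown for 4 genes, Sf3b3 and Srsf9, which rose in PGCs of both sexes, and Srsf6 and Prpf39, which fell in the mean of both sexes. They were picked after their values were seen, as examples in each direction whose stretch holds 0 bases of annotated exons. Each stretch is 180 bases, from 190 to 11 bases before the annotated start, and is read 5′ to 3′ on the gene's strand from RefSeq (GRCm38.p6). Capitals mark matches on either strand to 7 motifs that were searched: the ETS motif CCGGAAG, the NRF1 motif, the E-box CACGTG, the CCAAT box, the TATA box TATAAA, the GC box GGGCGG and the YY1 motif.
Sf3b3, chr8:110846814-110846993, minus strand: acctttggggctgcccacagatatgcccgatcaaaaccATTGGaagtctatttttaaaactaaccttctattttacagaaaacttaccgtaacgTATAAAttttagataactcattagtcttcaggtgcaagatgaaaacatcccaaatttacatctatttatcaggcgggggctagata
Srsf9, chr5:115326987-115327166, plus strand: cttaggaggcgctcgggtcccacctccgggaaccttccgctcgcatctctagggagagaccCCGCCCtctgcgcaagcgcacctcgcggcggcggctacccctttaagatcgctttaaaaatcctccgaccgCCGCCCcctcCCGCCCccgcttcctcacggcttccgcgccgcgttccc
Srsf6, chr2:162931318-162931497, plus strand: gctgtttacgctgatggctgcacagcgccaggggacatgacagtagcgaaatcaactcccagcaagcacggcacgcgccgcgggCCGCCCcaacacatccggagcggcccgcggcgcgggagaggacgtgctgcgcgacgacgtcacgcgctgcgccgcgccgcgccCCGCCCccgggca
Prpf39, chr12:65036144-65036323, plus strand: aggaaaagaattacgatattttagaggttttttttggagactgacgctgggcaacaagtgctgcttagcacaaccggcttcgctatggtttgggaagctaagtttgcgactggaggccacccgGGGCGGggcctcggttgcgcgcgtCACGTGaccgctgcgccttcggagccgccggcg
The Sf3b3 stretch holds a CCAAT and a TATAAA match and 36.7% G or C, and the other stretches hold GC boxes and between 58.3% and 73.3% G or C. Prpf39 also has an E-box. Over the 250 bases before the start, 46 members had a promoter in the table, and 16 of these (34.8%) held CCGGAAG, against 13.9% of 9758 genes. By family these were 6 Sf3, 4 Srsf, 3 Snrp, 2 Prpf and 1 Lsm gene. GGGCGG was in 65.2% of members and 61.7% of all, CCAAT in 37% and 36.7%, TATAAA in 8.7% and 5.91%, and CACGTG in 6.52% and 8.58%. No member held the NRF1 motif, found in 1.74% of all genes, or the YY1 motif, found in 2.08%. A GC box can lie inside a longer GC-rich run, and these matches describe letters, not bound sites.

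All 11 Snrp genes were higher in PGCs in the mean of both sexes, by 0.26 to 1.11 on the log2 read depth scale, with a median of 0.71. The 7 genes of the Sm ring (Snrpb, Snrpd1, Snrpd2, Snrpd3, Snrpe, Snrpf and Snrpg), grouped here by their known role after their values had been seen, were each higher in males and in females, with a median of 0.87. Snrpf, the Sm protein F (chromosome 10, 93583029 to 93589706, minus strand, GRCm38), had 137, 138 and 130 CPM in male PGCs and 45.1, 44.7 and 47.8 in male soma, against 103, 107 and 107 in female PGCs and 49, 43.4 and 45.9 in female soma. PGCs and soma did not overlap in either sex. Its log2 difference was 1.11 ± 0.04 (SE; limma adjusted p = 1.24e-11). Snrpb, which encodes the Sm proteins B and B′, had 395 to 437 CPM in male PGCs, 398 to 461 in female PGCs and 165 to 187 in both somas. PGCs of the sexes overlapped for this gene, and its difference from soma was 1.05 ± 0.04 (adjusted p = 1.4e-11).

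The U2 snRNP pair Snrpa1 and Snrpb2, which encode the U2 proteins A′ and B″, sat at the low end of the family. Snrpa1 had 90.5, 102 and 85.7 CPM in male PGCs and 45.7, 45.2 and 51.6 in female PGCs, with 49.1 to 63.1 in male soma and 47.7 to 58.8 in female soma. Only male PGCs stood apart among these 4 groups, and the gene was higher than soma in males (0.69 ± 0.10, adjusted p = 1.11e-05) with an estimate of -0.15 ± 0.10 in females (adjusted p = 0.162). Snrpb2 had the reverse layout. Its level was 78, 73.6 and 73.8 CPM in female PGCs, 41, 55.6 and 43.5 in male PGCs, 45.3 to 50.7 in male soma and 46.9 to 53.8 in female soma. It was higher than soma in females (0.45 ± 0.09, adjusted p = 0.000365) with 0.06 ± 0.09 in males (adjusted p = 0.525). The proteins of these 2 genes bind each other on the U2 RNA.

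Each of the 9 Sf3 genes was higher in PGCs in the mean of both sexes, with a median of 0.36 and a range of 0.19 to 1.45. All 3 Sf3a and all 6 Sf3b members passed in males, where 39.1% of all genes were higher. In females 4 of the 9 were higher and 1 was lower, near the 38.7% of all genes that were higher. Sf3b3, a large scaffold subunit of SF3b (chromosome 8, 110810239 to 110846787, minus strand), stood far above the rest of its family. Its level was 1036, 952 and 990 CPM in male PGCs, 987, 1000 and 1068 in female PGCs, 295, 261 and 299 in male soma and 311, 307 and 321 in female soma. No PGC library came near a soma library, and the ratio of mean CPM was 3.49 in males and 3.25 in females. The log2 difference was 1.45 ± 0.04 (adjusted p = 3.79e-13). The exons of Sf3b3 overlap Cog4 on the other strand and the small RNA gene Snord111 on its own, and how the counting treated strand is not known here. Sf3a1, a core SF3a subunit, had 285, 314 and 304 CPM in male PGCs, 258, 241 and 262 in female PGCs and 167 to 188 in both somas, a difference of 0.55 ± 0.04 (adjusted p = 6.39e-09).

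Sf3b1, which encodes the subunit that clamps the branch point helix, differed least within the family. Its level was 553, 515 and 584 CPM in male PGCs and 420, 469 and 467 in male soma, against 559, 530 and 540 in female PGCs and 522, 535 and 503 in female soma. The difference was 0.32 ± 0.05 in males (adjusted p = 5.7e-05) and 0.05 ± 0.05 in females (adjusted p = 0.385), and quantile normalization ended the male call (0.05, adjusted p = 0.423) and turned the mean of both sexes from 0.19 to -0.03. Sf3b1 and Sf3b3 are partners in one complex, and these libraries held unequal contrasts for them.

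The Srsf family was the most mixed. In the mean of both sexes 6 of 11 were higher and 3 were lower, with a median of 0.11 and a range of -0.22 to 1.18. Srsf9, an SR protein with a short arginine and serine tail (chromosome 5, 115327177 to 115333080, plus strand), had 373, 311 and 322 CPM in male PGCs, 298, 315 and 265 in female PGCs, 135, 121 and 124 in male soma and 95.5, 108 and 115 in female soma. PGCs and soma did not overlap, and the difference was 1.18 ± 0.06 (adjusted p = 8.91e-11). Srsf12, a further SR protein, had 10.2, 20.2 and 15 CPM in male PGCs, 18, 17.2 and 26.9 in female PGCs, 6.25 to 9.19 in male soma and 9.15 to 11.7 in female soma. Its difference was 0.61 ± 0.12 (adjusted p = 0.000189), with the largest SE among the named members.

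The 3 Srsf genes that were lower in the mean of both sexes were Srsf5, Srsf6 and Srsf11. Srsf6 (chromosome 2, 162931528 to 162937121, plus strand) had 305, 297 and 328 CPM in female PGCs, 490, 532 and 499 in male PGCs, 497, 511 and 522 in male soma and 518, 498 and 463 in female soma. Female PGCs lay below the other 3 groups, which overlapped in CPM. Its difference from soma was -0.53 ± 0.05 in females (adjusted p = 3.31e-07) and 0.09 ± 0.05 in males (adjusted p = 0.129). Srsf5 had 318 to 387 CPM in male PGCs compared with 413 to 481 in male soma, while female PGCs had 357 to 423 and female soma 393 to 535. The groups overlapped in females, and the difference was -0.21 ± 0.06 (adjusted p = 0.00602). The Srsf5 call in males ended when any of male PGC replicates 1 or 3 or male soma replicates 2 or 3 was left out (-0.21 to -0.18), and that in females (-0.21) ended without each of 9 of the 12 libraries (-0.22 to -0.11) and with voom (-0.22, adjusted p = 0.0979). Median centring moved the median of all genes from -0.04 to 0.18 and left 0 Srsf genes lower, whereas quantile normalization, with a median of 0.16, left 6 lower. The direction of these 3 genes relative to soma changed with the scaling for Srsf5 and Srsf6. The Srsf median stayed below the medians of the other 4 families with both scalings and with voom (0.33, -0.11 and 0.16).

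Among the 13 Prpf genes 9 were higher and 3 were lower, with a median of 0.40. With median centring 10 were higher and 1 lower, and Prpf38b went from -0.24 to -0.01 (adjusted p = 0.851). The 5 genes of U4/U6 and U5 (Prpf3, Prpf4, Prpf6, Prpf8 and Prpf31), also grouped after their values had been seen, were each higher in males and in females, with a median of 0.55. Prpf3, a U4/U6 protein (chromosome 3, 95830124 to 95855885, minus strand), had 122, 98.8 and 103 CPM in male PGCs, 121, 103 and 120 in female PGCs and 46.2 to 54.1 in both somas, a difference of 0.94 ± 0.05 (adjusted p = 7.2e-10). Prpf8, the U5 protein at the centre of the catalytic spliceosome, had 771, 873 and 877 CPM in male PGCs, 662, 661 and 593 in female PGCs, 447 to 508 in male soma and 433 to 533 in female soma. Both kinds of PGC lay above soma, and the difference was 0.55 ± 0.05 (adjusted p = 1.07e-07). Prpf19, the ubiquitin ligase of the PRP19 complex, had 272 to 288 CPM in male PGCs and 250 to 286 in male soma, and 219 to 271 in female PGCs and 200 to 244 in female soma, with a difference of 0.16 ± 0.06 (adjusted p = 0.0171) that quantile normalization turned to -0.05.

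The paralogs Prpf38a and Prpf38b, related to a yeast protein that joins the tri-snRNP late, went apart. Prpf38a had 87.6, 91.7 and 94.9 CPM in male PGCs, 77.7, 83.5 and 68.8 in female PGCs and 37.1 to 45.2 in both somas, and rose by 0.81 ± 0.06 (adjusted p = 7.88e-09). Prpf38b had 133, 118 and 127 CPM in male PGCs, and 122, 131 and 143 in male soma, against 80.7, 75.3 and 91 in female PGCs, and 140, 123 and 127 in female soma. Only its female PGC libraries were low, and the difference was -0.51 ± 0.07 in females (adjusted p = 1.25e-05) and 0.04 ± 0.07 in males (adjusted p = 0.592). Prpf39, related to a yeast U1 snRNP protein (chromosome 12, 65036333 to 65063386, plus strand), had 59.8, 76.3 and 77.9 CPM in male PGCs, and 93.8, 107 and 97.7 in male soma, against 67.8, 64.6 and 81.7 in female PGCs and 141, 106 and 104 in female soma. Each PGC library lay below each soma library, and the difference was -0.42 ± 0.08 (adjusted p = 0.000119). In males alone the Prpf39 value was -0.29 ± 0.11 (adjusted p = 0.0222), and it missed the threshold without male PGC replicate 1 (-0.20, adjusted p = 0.113) or male soma replicate 2 (-0.24, adjusted p = 0.085), and with median centring (-0.04, adjusted p = 0.736). Exons of Prpf39 overlap Fkbp3 on the other strand. The third lower gene, Prpf4b, a kinase of the tri-snRNP, had -0.16 ± 0.05 (adjusted p = 0.00484).

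Lsm genes had the largest contrast of the 5 families, with 10 of 11 higher, 0 lower and a median of 0.94. The 7 genes of the nuclear ring on U6 (Lsm2 to Lsm8), grouped after their values had been seen, were each higher in both sexes, with a median of 1.08 and a range of 0.86 to 1.46. Lsm3 (chromosome 6, 91515928 to 91522625, plus strand) had 102, 116 and 96.1 CPM in male PGCs, 116, 128 and 120 in female PGCs, 30.7, 31.2 and 29.6 in male soma and 30.1, 37.3 and 28.6 in female soma. The lowest PGC library had 96.1 CPM and the highest soma library 37.3, with a difference of 1.46 ± 0.06 (adjusted p = 1.63e-11). Lsm2 had 109, 108 and 106 CPM in male PGCs, 81.5, 82.3 and 88.9 in female PGCs, 24.7 to 27 in male soma and 26.7 to 37.9 in female soma. Its difference of 1.67 ± 0.08 in males (adjusted p = 3.07e-10) was the largest of any member in that sex. Lsm8, the subunit that sets the nuclear ring apart from the cytoplasmic one, had 125, 94.9 and 101 CPM in male PGCs, 78.8, 74.2 and 90.3 in female PGCs, 29.3 to 38.3 in male soma and 38 to 43.9 in female soma, a difference of 1.06 ± 0.07 (adjusted p = 3.34e-09).

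The other 4 Lsm members lie outside the U6 ring. Lsm12, an Lsm relative of larger size, had 85 to 87.4 CPM in male PGCs, 86.1 to 92.8 in female PGCs and 37 to 45.8 in both somas, a difference of 0.90 ± 0.05 (adjusted p = 2.05e-10). It was named after its values were seen, and its PGC and soma libraries did not overlap. Lsm1 takes the place of Lsm8 in the cytoplasmic ring, which acts in messenger RNA decay, and had 40.1, 43.2 and 40.4 CPM in male PGCs, 28.1, 33.5 and 39.5 in female PGCs and 16.5 to 20.2 in both somas (0.78 ± 0.07, adjusted p = 6.03e-08). Lsm10 and Lsm11 belong to the U7 snRNP, which processes histone messages rather than introns. Lsm10 had 14.2 to 20 CPM in male PGCs compared with 8.54 to 12.3 in male soma, and 10.3 to 13.9 in female PGCs against 8.9 to 11.7 in female soma, a difference of 0.31 ± 0.09 (adjusted p = 0.00693). Lsm11 had 26.7, 27.6 and 23 CPM in male PGCs compared with 32.4, 37.3 and 36.5 in male soma, and 27.9 to 34.6 in female PGCs against 27.6 to 32.9 in female soma. Its difference was -0.24 ± 0.10 in males (adjusted p = 0.0302) and 0.02 ± 0.10 in females (adjusted p = 0.854). The male call of Lsm11 was lost without male PGC replicate 3 (-0.18), male soma replicate 2 (-0.21) or male soma replicate 3 (-0.23), and its sign turned with quantile normalization (0.01).

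**Figure D2:**
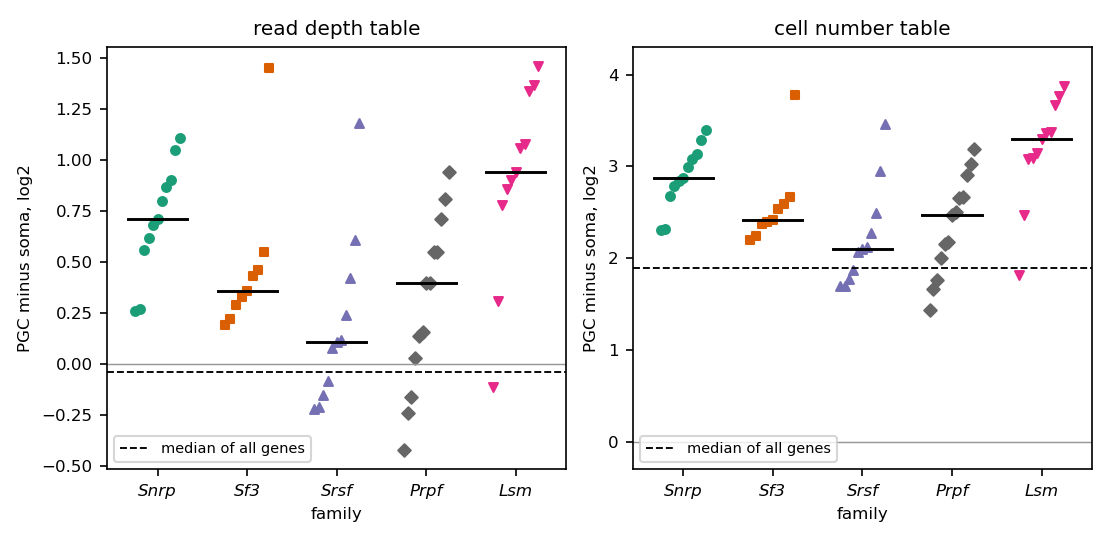
Difference of PGCs from soma (log2, mean of both sexes) for each member, by family, in the read depth table and in the cell number table. Points are genes, solid bars are family medians (0.71, 0.36, 0.11, 0.40 and 0.94 on the read depth scale) and the dashed line is the median of all genes (-0.04 and 1.89). In the cell number panel all 55 genes lie above 0.

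Per cell, every member was higher in PGCs. On the log2 scale relative to cell number, 55 of 55 were higher and 0 lower in the mean of both sexes, and the same counts held in males and in females. Most of the genome moved the same way on this scale, with 74.3% of all genes higher and 16.5% lower in the mean of both sexes, 64.0% and 19.8% in males and 77.2% and 11.5% in females, so the count alone does not set these genes apart. Their median was 2.59, against 1.89 for all genes, and 47 of 55 members lay above the median of all genes. The family medians were 2.87 for Snrp, 2.41 for Sf3, 2.10 for Srsf, 2.47 for Prpf and 3.3 for Lsm. Sf3b3 had log2 levels of 11.13, 10.95 and 10.97 in male PGCs and 7.35, 7.14 and 8.28 in male soma, against 11.04, 10.82 and 11.01 in female PGCs and 6.76, 6.62 and 7.10 in female soma. PGCs exceeded soma in all libraries, by 3.78 ± 0.20 (adjusted p = 6.08e-77). Prpf39, the member with the smallest difference per cell, had 7.01, 7.31 and 7.30 in male PGCs and 5.69, 5.86 and 6.67 in male soma, against 7.18, 6.87 and 7.31 in female PGCs and 5.63, 5.08 and 5.48 in female soma. It was thus higher per cell by 1.43 ± 0.20 (adjusted p = 2.84e-12) while lower as a share of reads. Male soma replicate 3 stood above the other male soma libraries on this scale, as its library median of 5.25 against 4.33 and 4.29 over all genes also did. Without it all 55 members were still higher in males, and their median there went from 2.42 to 2.67. Genes share such shifts of whole libraries, but the test treats their spreads as separate. The p-values on this scale therefore overstate the evidence from 12 libraries.

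The sexes differed in PGCs and hardly in soma. As a share of reads, 35 of 55 members were lower in female than in male PGCs and 1 was higher, with 32.5% of all genes lower and 32.8% higher. In soma 1 was lower and 0 were higher in females by limma, with 11.0% of all genes lower and 13.3% higher. The members' median difference between the sexes was -0.28 in PGCs and 0.00 in soma, and that of all genes was 0.01 in both. Summed over the members, female PGCs had 0.845 times the CPM of male PGCs. All female PGC libraries lay below all male ones for 39 members on the read depth scale (34.7% of all genes) and above them for 1 (35.4%). By CPM these PGC counts were 29 and 3, and the share of all genes was not computed. In soma the sexes lay apart on the read depth scale for 6 members with females lower (19.7% of all genes) and 4 higher (20.8%). Counted by sex against soma, 44 members were higher and 3 lower in male PGCs (39.1% and 43.7% of all genes), and 33 were higher and 8 lower in female PGCs (38.7% and 42.3%). PGC libraries were all above the soma libraries for 46 members in males (40.3% of all genes), 34 in females (39.1%) and 33 over both sexes at once (29.6%). They were all below for 2 in males (44.7%), 9 in females (42.7%) and 1, Prpf39, over both sexes (34.1%). For 32 members the PGCs were higher in each sex, as they were for 28.9% of all genes. The female minus male difference of these contrasts was below 0 in 28 members and above 0 in 1 (28.9% and 27.9% of all genes).

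**Figure D3:**
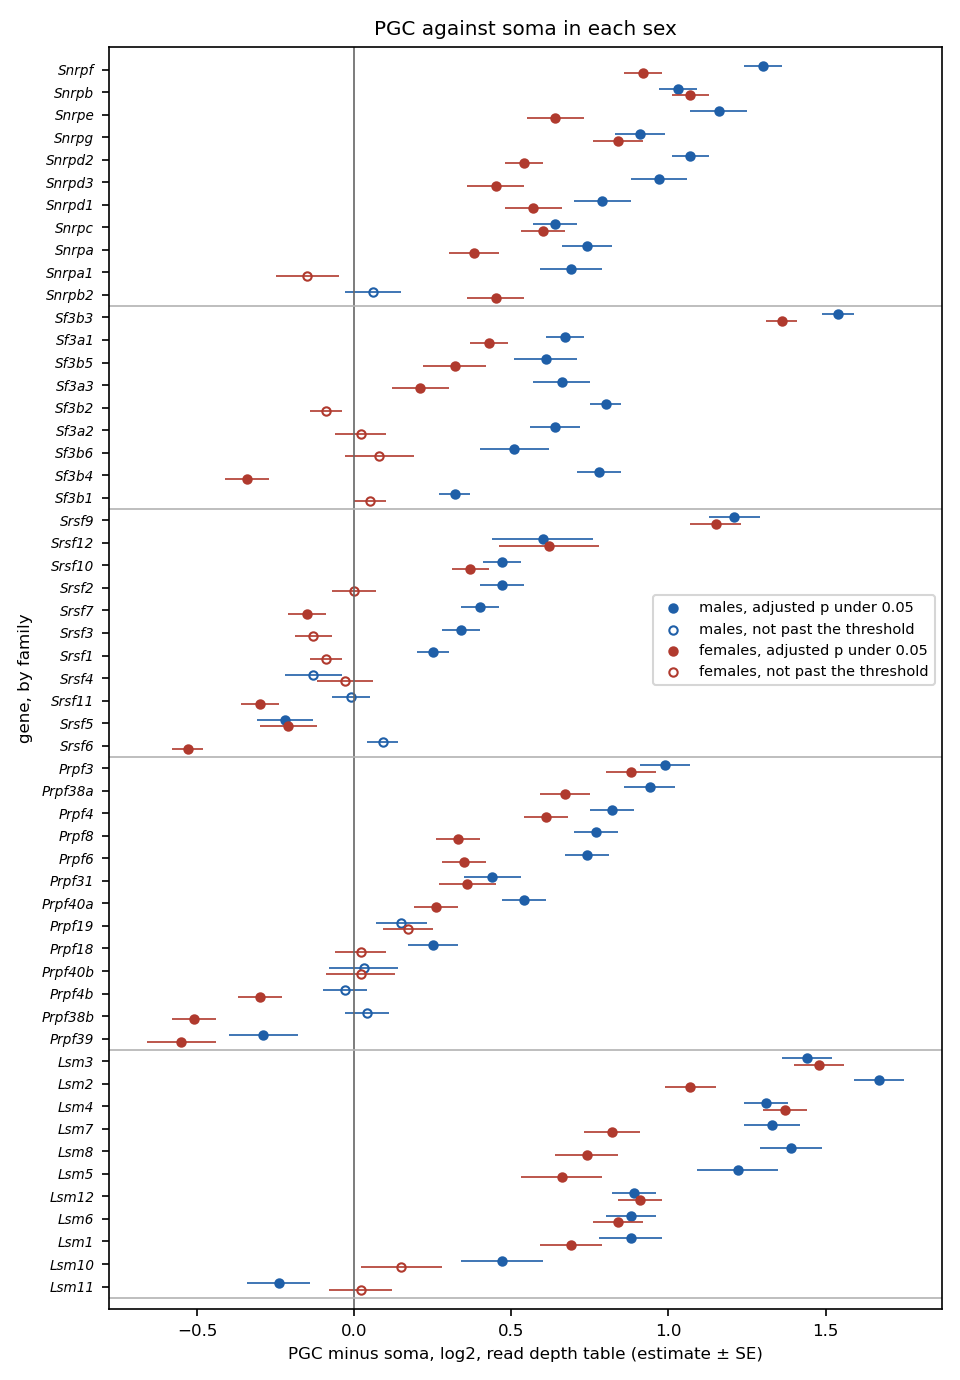
Difference of PGCs from soma (log2, read depth table, estimate ± SE) in males (blue) and females (red) for each splicing gene, by family. Filled points passed an adjusted p of 0.05. Most blue points lie to the right of the red ones, as for Sf3b4 (0.78 in males and -0.34 in females), whereas Snrpb2 has the opposite order (0.06 and 0.45).

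Among the 55 members, the 4 largest differences between PGCs of the sexes were in U2 snRNP genes. Other core spliceosome genes differed as much, such as Dhx38 (-1.36) and Aqr (-1.21), named here after their values were seen. Sf3b4, an SF3b subunit that contacts pre-mRNA near the branch site (chromosome 3, 96172332 to 96177564, plus strand), had 164, 175 and 146 CPM in male PGCs, 55.5, 59.3 and 62.2 in female PGCs, 88.8, 89 and 86.6 in male soma and 75.5, 77.8 and 89.1 in female soma. Male PGCs lay above the soma and female PGCs below it. Female PGCs had 0.365 times the mean CPM of male PGCs, a log2 difference of -1.24 ± 0.07 (adjusted p = 1.19e-08), and the female minus male difference of the contrast with soma was -1.12 ± 0.11 (adjusted p = 1.55e-06). Sf3b2, which binds Sf3b4 in the complex, had 626, 662 and 621 CPM in male PGCs, 311, 312 and 333 in female PGCs, 327 to 357 in male soma and 337 to 353 in female soma. Only male PGCs were high, and the female PGCs were lower by -0.91 ± 0.05 (adjusted p = 5.52e-09). For Sf3a2, an SF3a subunit, the values were 138, 157 and 127 CPM in male PGCs, 78.4, 73.1 and 83.9 in female PGCs, 85.2 to 88.6 in male soma and 70.4 to 82.1 in female soma. This again put male PGCs alone at the top, with -0.77 ± 0.08 between the PGCs (adjusted p = 9.72e-07). Snrpa1, described above, had -0.84 ± 0.10 (adjusted p = 3.88e-06). Exons of Sf3a2 overlap Plekhj1, and those of Sf3b2 and Sf3b4 overlap unnamed gene models, each on the other strand.

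Not all genes of the U2 snRNP followed this. Sf3b3 had 1.03 times as many CPM in female as in male PGCs, and its log2 difference of -0.09 ± 0.05 had an adjusted p of 0.165. That of Sf3b1 was -0.13 ± 0.05 (adjusted p = 0.0408) and missed the threshold without any 1 of 5 PGC libraries (-0.15 to -0.10) and with no variance trend (adjusted p = 0.103). Snrpb2 was the 1 member that was higher in female PGCs, by 0.41 ± 0.09 (adjusted p = 0.00107). In the other families, Srsf6 differed by -0.68 ± 0.05 (adjusted p = 9.35e-08), Prpf38b by -0.59 ± 0.07 (adjusted p = 6.5e-06) and Prpf8 by -0.44 ± 0.07 (adjusted p = 9.85e-05). Quantile normalization ended the Prpf8 call (-0.12, adjusted p = 0.125). Lsm8 differed by -0.42 ± 0.10 (adjusted p = 0.00211) and Lsm2 by -0.40 ± 0.08 (adjusted p = 0.000935). Lsm3 (0.06 ± 0.08), Snrpb (-0.07 ± 0.06), Prpf3 (-0.04 ± 0.08) and Srsf12 (0.21 ± 0.16) did not pass the test. In soma the 1 call was Prpf19 (-0.27 ± 0.08, adjusted p = 0.0249), and it was lost when any of male soma replicates 1 or 3 or female soma replicates 1 or 2 was left out (-0.25 to -0.22).

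**Figure D4:**
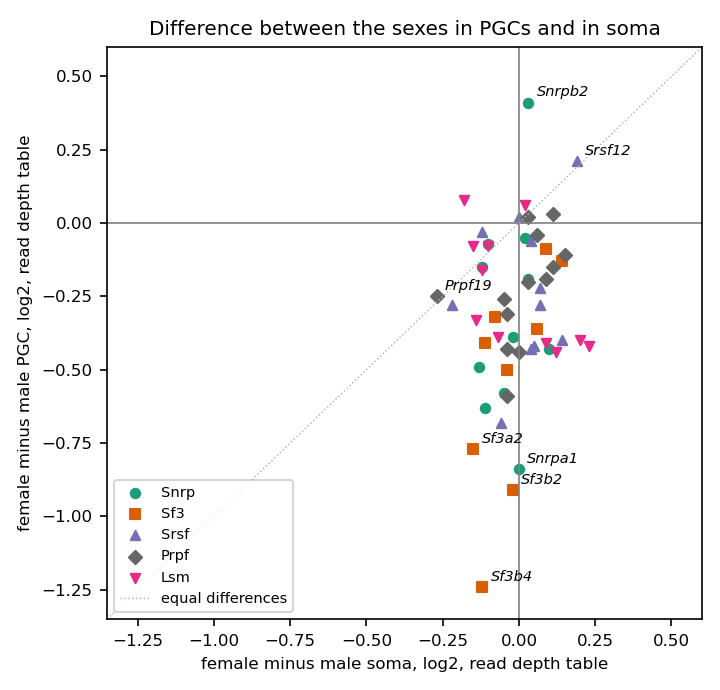
Female minus male difference in PGCs (vertical axis) against the female minus male difference in soma (horizontal axis) for each member, log2, read depth table. Points are genes, coloured by family, and the dotted line marks equal differences. Along the horizontal axis they stay between -0.27 and 0.23, while along the vertical axis they run from -1.24 (Sf3b4) to 0.41 (Snrpb2).

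A total of 12 members were higher than soma in male PGCs and not called higher in female PGCs. For 10 of the 12 the difference between the sexes itself passed the test. Over all genes 39.1% were higher in males and 28.9% in each sex, and the share with the male-only pattern was not computed. In 2 of the 12 members, Sf3b4 and Srsf7, the female PGCs were lower than soma, and neither call held in every fit. Sf3b4 in females went from -0.34 to -0.14 (adjusted p = 0.0965) with median centring. Srsf7, an SR protein with a zinc knuckle, had 314, 382 and 339 CPM in male PGCs, 256 to 274 in male soma, 263 to 278 in female PGCs and 291 to 320.2 in female soma. It was chosen for description after its values were seen. Its difference from soma was 0.40 ± 0.06 in males (adjusted p = 3.36e-05) and -0.15 ± 0.06 in females (adjusted p = 0.0408). The female Srsf7 call was not made by voom on whole reads (-0.15 ± 0.09, adjusted p = 0.112), and with median centring 1 Srsf gene was lower in females in place of 4.

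**Figure D5:**
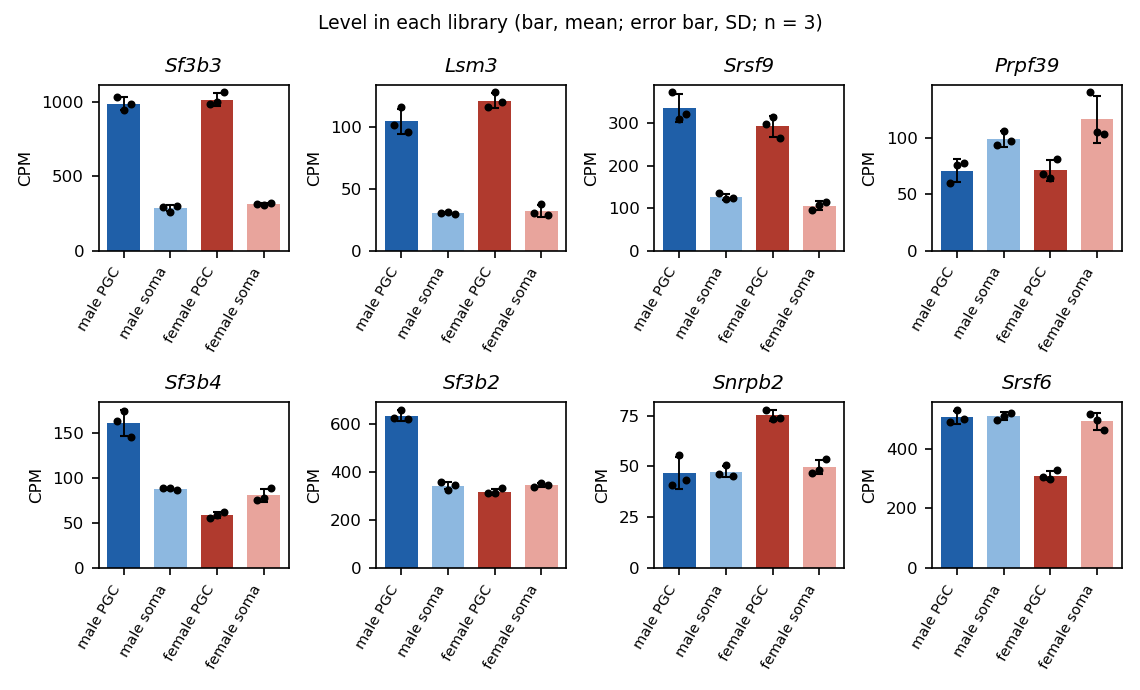
CPM of 8 splicing genes in the 4 groups: bars are means, error bars SD over 3 libraries, and points the libraries. Sf3b3, Lsm3 and Srsf9 are high in PGCs of both sexes and Prpf39 is low in both, Sf3b4 and Sf3b2 are high in male PGCs, Snrpb2 is high in female PGCs, and Srsf6 is low in female PGCs.

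Summed by family, the CPM of PGCs over soma was 2.59 in males and 2.39 in females for Lsm, 2.06 and 1.81 for Snrp, 1.9 and 1.48 for Sf3, 1.39 and 1.17 for Prpf, and 1.18 and 0.952 for Srsf. Sums weight the abundant genes. The median CPM of the Srsf genes in female PGCs over their median CPM in female soma was 1.03. These medians can fall on different genes in PGCs and in soma. The median of the log2 differences of single Srsf genes in females was -0.09 on the read depth scale. The Srsf family summed to 3386 ± 55 CPM in female PGCs against 3557 ± 116 in the soma of females (SD, 3 libraries), with ranges of 3323 to 3426 and 3423 to 3629 that overlapped by a few CPM. In male PGCs it summed to 3841, 4314 and 3901 CPM, above the 3374 to 3449 of male soma.

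Gene structure also differed between the families. The median coding length was 366 bases for Lsm, 378 for Snrp, 786 for Srsf, 1503 for Sf3 and 1995 for Prpf (GENCODE vM21, GRCm38), against 1455 over 12125 genes. Across the 55 members the Spearman correlation of coding length with the difference of PGCs from soma was -0.479, and across all genes it was 0.0165. These genes share libraries and are not independent, so the values are descriptions. Sf3b3, with 3651 coding bases, lies off this pattern. An annotated transcript subject to nonsense-mediated decay was present for 9 of 11 Srsf genes (81.8%), 24 of 55 members (43.6%) and 28.6% of all genes. The number of decay and retained-intron transcripts correlated with the difference from soma by -0.409 over the members and 0.0719 over all genes. The members lie on 16 chromosomes. The exons of 13 overlap a gene on the other strand, among them Snrpf with Ccdc38. Those of 3, Sf3b3, Snrpa1 and Lsm3, overlap a gene on their own strand. The part of such overlaps in the counts was not tested.

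Other splicing genes, in lists drawn up by function, gave a background for the members. Over all genes 41.4% were higher in PGCs in the mean of both sexes and 45.3% lower, so most genes passed this test. Of 52 further core spliceosome genes 45 were higher in PGCs and 2 lower in the mean of both sexes, with a median of 0.56. Eftud2, the U5 GTPase, had 592 to 643 CPM in male PGCs, 415 to 451 in female PGCs, 144 to 158 in male soma and 151 to 171 in female soma (1.42 ± 0.04, adjusted p = 5.73e-13), and Mfap1a was the lowest at -0.29 ± 0.07 (adjusted p = 0.00197). Between PGCs, 32 of these 52 were lower in females and 4 higher (32.5% and 32.8% of all genes), with a median of -0.36. All 16 genes of snRNP assembly passed, 13 higher and 3 lower, from Gemin5, which binds small nuclear RNA, at 1.29 ± 0.05 (adjusted p = 1.06e-11) to Tgs1, the enzyme that modifies its cap, at -0.44 ± 0.07 (adjusted p = 3.29e-05). In the exon junction complex 4 of 5 were higher and 0 lower, with Rbm8a at 1.37 ± 0.04 (adjusted p = 5.01e-13) and Magohb at -0.02 ± 0.08 (adjusted p = 0.817). Relatives of the Lsm genes outside the rule, mostly decapping factors, had 8 of 11 higher and 2 lower, from Naa38 at 1.11 ± 0.07 (adjusted p = 3.13e-09) to Dcp2 at -0.48 ± 0.06 (adjusted p = 3.01e-06).

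In the minor spliceosome, which removes a rare class of introns, 6 of 10 genes were higher and 2 lower. Zrsr2, which recognises the 3′ splice site there, had 299, 302 and 285 CPM in female PGCs, 133, 118 and 125 in male PGCs and 44 to 67.8 in both somas. It was higher in PGCs (1.46 ± 0.05, adjusted p = 4.05e-12) and higher in female than in male PGCs (0.88 ± 0.07, adjusted p = 1.99e-07). Scnm1 was lowest at -0.42 ± 0.08 (adjusted p = 0.000233). Among regulators of splice site choice, 13 of 24 hnRNP genes were higher and 8 lower, 5 of 12 SR kinases and related factors were higher and 7 lower, and 5 of 17 tissue-restricted regulators were higher and 9 lower. Over all genes 41.4% were higher and 45.3% lower, and no difference of these lists from that was tested. Hnrnpa3 had 73.1 to 107 CPM in male PGCs, 49.2 to 52.4 in female PGCs and 261 to 301 in both somas (-1.55 ± 0.06, adjusted p = 1.45e-11), while Ptbp2, a repressor of many exons, was higher at 1.19 ± 0.05 (adjusted p = 3.03e-11). Clk1, a kinase of SR proteins, had 67.6 to 80.5 CPM in male PGCs, 55.5 to 61 in female PGCs, 165 to 231 in male soma and 231 to 318 in female soma (-1.37 ± 0.08, adjusted p = 3.9e-10), and Rnps1 was higher at 1.16 ± 0.04 (adjusted p = 2.04e-12). Esrp1, an epithelial splicing regulator, had 244 to 253 CPM in male PGCs, 90.9 to 94.5 in female PGCs and 0.765 to 6.89 in soma (4.58 ± 0.09, adjusted p = 6.39e-14). Mbnl2, a muscleblind protein, had 3.72 to 9.89 CPM in PGCs and 74.1 to 102 in soma (-2.85 ± 0.11, adjusted p = 1.34e-11).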

How the data were processed

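RNA-seq of 12 libraries was analysed from 2 tables of 12845 genes. The authors deposited log2 values, normalized to cell number in one table and to read depth in the other. Per the submitters' processing notes the build was mm10 and the tools included limma 3.28.14, edgeR 3.14.0 and DESeq2 1.12.3 in R 3.3.0, besides HTSeq 0.6.1p1, TopHat2 2.0.9 and Trim Galore 0.4.0. Not given in the sources used here are each tool's role, the annotation, the strand setting, the handling of reads that match several genes and the transform of the read depth values, so any member with near-identical copies carries that uncertainty. Values of the cell number table equalled log2 of whole reads plus 0.5 over a library constant, within 0.001 reads for 100% of values. These reads gave depth and CPM (reads per library total).

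Both tables were tested with limma 3.58.1 (R 4.3.3) on all genes and 12 libraries, by a fit of 4 group means with a variance trend, and p-values were adjusted by the Benjamini-Hochberg method across the table. The script was tested on simulated data with noise drawn separately for each gene, which leaves out shifts of whole libraries. Alternatives were leaving out each library, dropping low genes, median centring, quantile normalization, other variance settings, a replicate block and voom on the whole reads. Tables were handled with Python and pandas. No 2 replicates were near-identical, with 5.43 to 30.4 as chi-square over degrees of freedom. The members and lists were chosen with earlier results of these data known. Named members are the 2 highest and 2 lowest of each family by the mean difference of PGCs from soma, the 4 with the largest sex difference in PGCs and in soma, the 3 with the largest difference between those contrasts, and Lsm1, Lsm10, Lsm11, Prpf19, Prpf8 and Sf3b1. From each other list the highest and the lowest gene were named. All 55 members were found in GENCODE vM21 by symbol. Protein sequences were not used here. Single erythroid markers are not reported here.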

Additional observations from a re-analysis of the deposited data

Results flagged for a closer look

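The difference of PGCs from soma was not the same in both sexes for 13 named members, by limma's test of the female minus male difference (log2, read depth table, adjusted p under 0.05). It was below 0 for 12: Sf3b4 (-1.12), Sf3b2 (-0.90), Snrpa1 (-0.84), Lsm8 (-0.65), Sf3a2 (-0.62), Srsf6 (-0.62), Lsm2 (-0.60), Prpf38b (-0.56), Prpf8 (-0.44), Snrpf (-0.38), Sf3b1 (-0.27) and Sf3a1 (-0.24). It was above 0 for Snrpb2 (0.39). Over all 55 members it was called below 0 in 28 and above 0 in 1 (28.9% and 27.9% of all genes). Some of the 13 were named for the size of this difference or of the sex difference in PGCs, so their count is a description. Of the U2 snRNP genes among these, Sf3b4 is the 1 whose female PGCs were called lower than soma (-0.34), a call that ended with median centring (-0.14, adjusted p = 0.0965). Snrpb2 missed the threshold without male soma replicate 2 (0.35, adjusted p = 0.0502) and Sf3a1 without female PGC replicate 2 (-0.21, adjusted p = 0.0507). Leaving out 1 library lost none of the other 11. Quantile normalization ended the call for Prpf8 (-0.21, adjusted p = 0.0687), Sf3b1 (-0.15, adjusted p = 0.115) and Sf3a1 (-0.18, adjusted p = 0.0521), and Sf3a1 was also lost with no variance trend (adjusted p = 0.0504).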

How the results depend on the processing

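Of 124 named gene differences with a call, 94 kept call and direction under every alternative run and 30 lost or turned it in at least 1, of which 19 did so only with median centring or quantile normalization. Scaling was the limit for small differences: with median centring 48 members were higher and 1 lower in the mean of both sexes as a share of reads, and with quantile normalization 39 and 9. Over all genes median centring changed 5321 higher and 5817 lower to 6446 and 4855.

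With median centring, 0 members were lower in males and 3 in females as a share of reads, and 1 (mean) and 4 (females) per cell. With quantile normalization, 6 were lower in males, 2 were higher in female PGCs, and in soma 4 were higher and 0 lower in females; per cell 8 (mean), 5 (males) and 11 (females) were lower, and 33 were higher in females. In soma, 0 were lower with no trend, and array weights gave 1 higher and 2 lower. For the difference between the sexes, array weights gave 2 above 0. Leaving out 1 library gave 0 to 4 lower in males, 0 to 1 higher and 0 to 2 lower in soma, and 0 to 1 above 0 for the difference between the sexes. The 0 in males came without male soma replicate 2, and counts of 1 without male PGC replicates 1 or 3 or male soma replicate 3. In soma, 1 was higher without female soma replicate 1, 2 were lower without male PGC replicate 1 or female soma replicate 3, and 0 were lower without male soma replicates 1 or 3 or female soma replicates 1 or 2. The 0 for the difference between the sexes came without male soma replicate 2.

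A family's median CPM in PGCs over its median CPM in soma was 2.35 in males and 1.69 in females for Snrp. It was 1.82 and 1.16 for Sf3, 1.29 and 1.03 for Srsf, 1.23 and 1.05 for Prpf, and 3.09 and 2.51 for Lsm. The medians can fall on different genes in PGCs and in soma, so these are not ratios of single members. Named genes that turned sign with median centring were Srsf5 (0.01 in the mean, 0.03 in males), Srsf6 (0.00) and Lsm11 (0.00 in males) as a share of reads, and Srsf5 (0.00), Srsf6 (-0.02), Prpf38b (-0.04) and Prpf39 (-0.28) per cell. With quantile normalization they were Sf3b1 (-0.03), Prpf19 (-0.05), Srsf6 (-0.18 in males) and Lsm11 (0.01 in males) as a share of reads, Sf3b1 (0.09) and Sf3b3 (0.29) between female and male PGCs, and Srsf5 (-0.48), Srsf6 (-0.50), Prpf19 (-0.02), Prpf38b (-0.47) and Prpf39 (-0.64) per cell. Both settings set the library-wide level equal by construction, so they remove the shift that the cell number table carries. The cause of the other changes was not tested.

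Voom on whole reads gave 46 higher and 6 lower in the mean of both sexes. Same-numbered libraries had correlations of deviations from -0.36 to 0.07 across genes in the read depth table, and other-numbered ones from -0.18 to 0.26. With 3 libraries a group these values cannot decide whether replicate numbers pair the libraries, and the labels do not say. With a replicate block 45 members were higher and 6 lower, and 34 were lower in female than in male PGCs. Among named genes the block put Lsm11 in males (-0.24, adjusted p = 0.0513) and Sf3b1 between female and male PGCs (-0.13, adjusted p = 0.0652) above an adjusted p of 0.05, and it ended no other named call.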
